A study of Mus musculus with 8 samples.

Results

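The response of the low thoracic spinal cord to a hemisection, a cut through a single side of the cord, was read class by class from single nuclei. The members are 3 of the 8 libraries of the series, all of experiment 2: hemisection library 1, hemisection library 2 and 1 uninjured control library. They were chosen by their titles and by the library name that the deposited annotation gives each nucleus. The study's design text describes the hemisected animals as undergoing natural repair; no label gives the time from injury to collection. All groups compared here are wild-type C57BL/6 mice, and no treatment or transgene is named for any of them. The 2 untraced uninjured libraries of experiment 1, whose GFP-negative nuclei were passed through a cell sorter, served as a check from another preparation. Nothing in the labels says whether libraries of a group came from separate animals, so the p-values measure the spread between libraries, which may be technical. In neurons that spread also included GFP-traced libraries outside this comparison, as the processing section describes. In the deposited annotation the nuclei of both hemisection libraries carry the same name prefix, hemisection_1, while those of the untraced libraries carry different ones, so whether the hemisection libraries were split from a single preparation cannot be told; if they were, they are technical replicates. The 3 libraries hold 9264 of the 12447 nuclei of the series, 1116 and 1511 after hemisection and 6637 in the uninjured control, and the untraced libraries hold 1936 and 887.

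Interferons are cytokines released after infection or tissue damage. Their receptors pass the signal to transcription factors, STAT2 among them, which switch on genes that sense foreign RNA, restrict pathogens and display peptides on MHC class I molecules. Sterol synthesis is the pathway that makes cholesterol, of which myelin is rich, and the factor SREBP2 drives its enzymes together when cell sterol is low. Microglia are the resident macrophages of the cord. In damaged or demyelinating tissue they take up lipid debris, lose transcripts such as P2ry12 and Tmem119 and gain others such as Apoe, Spp1 and Gpnmb.

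The annotation divides the nuclei into 6 classes. Neurons numbered 1000 and 108 in the hemisection libraries, 2148 in the uninjured control and 354 and 123 in the untraced libraries. Oligodendrocytes numbered 62, 765, 3164, 1256 and 520 in the same order, and microglia 32, 593, 366, 149 and 198. These 3 classes had at least 20 nuclei in every library and were tested. Oligodendrocyte precursors, with 14 and 26 nuclei after hemisection, were tested at a lower minimum of 10 nuclei, and astrocytes and vascular cells, with 13 and 14 nuclei after hemisection in all, are described without a test. Glial sums were small in hemisection library 1, with 166061 UMIs (unique transcript molecules counted) in oligodendrocytes and 82808 in microglia, against 1745541 and 1249352 in library 2. In every library each class had its own marker list as the highest summed list, except that vascular nuclei were led by endothelial or by fibroblast and meningeal markers. Barcodes shared between libraries numbered 2 between the untraced libraries, 1 between hemisection library 2 and the uninjured control and 1 between untraced library 1 and the uninjured control.

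The uninjured control library stood apart from the others before any effect of injury was read. Its neuron markers summed to 1855 CPM (UMIs scaled to the total of the class in the library) in oligodendrocytes and 2731 CPM in microglia, against 96.9 to 403 CPM in the hemisection and 135 to 239 CPM in the untraced libraries. Its mitochondrially encoded genes summed to 4639 to 9576 CPM over the 3 tested classes, against 590 to 2079 CPM after hemisection and 549 to 1192 CPM in the untraced libraries. All 2148 neurons of that library carry a barcode in their deposited name and all 4489 of its other nuclei carry none. The plot of summed marker levels shows both differences. Between the uninjured control and the untraced libraries themselves, 299 genes differed in neurons (2.58% of those tested), 1098 in oligodendrocytes (9.21%) and 985 in microglia (11.9%). Counts of calls are therefore given against both references; the 2 comparisons use the same hemisection libraries, so they do not count as separate evidence.

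**Figure D1:**
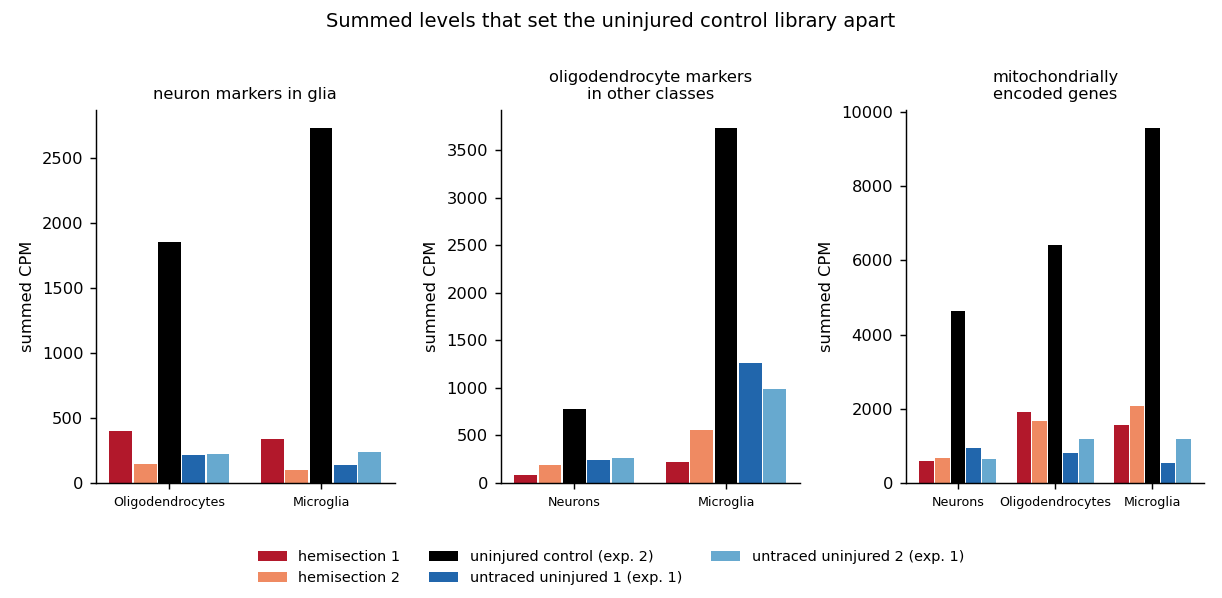
Summed CPM of neuron markers in glia, of oligodendrocyte markers in neurons and microglia, and of mitochondrially encoded genes, with 1 bar per library. The black bar of the uninjured control is the highest in each group of bars, at 1855 and 2731 CPM for neuron markers in oligodendrocytes and microglia.

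Neurons, oligodendrocytes and microglia shared a rise of interferon-response genes against both references. Neurons and oligodendrocytes also shared falls of sterol synthesis genes against either reference, whereas microglia had such falls against the uninjured control only and the comparison with all uninjured libraries pooled had 0 shared falls. The uninjured control is 1 library, so its own spread was not measured, and the test assumes that it varies like the replicated groups in the fit. Against the uninjured control, the edgeR quasi-likelihood test called (adjusted p under 0.05 by Benjamini-Hochberg across the genes of the class) 110 genes higher and 535 lower in neurons, 0.948% and 4.61% of 11601 tested. In oligodendrocytes it called 338 higher and 569 lower, 2.83% and 4.77% of 11924, and in microglia 609 higher and 1077 lower, 7.35% and 13% of 8283. The mix of neurons also differed. Dorsal excitatory neurons were 53.3% and 58.3% of neurons after hemisection, 42.4% in the uninjured control and 54.5% and 57.7% in the untraced libraries. In dorsal excitatory neurons alone, 20 genes were called higher and 217 lower than in the uninjured control. The part of the mix in the neuronal calls was not tested. Of the 110 genes higher in neurons, 55 were also higher in oligodendrocytes or microglia and 29 in both. Of the 535 lower genes, 260 were also lower in a glial class and 123 in both. The 55 are 50% of the neuronal rises; the 45 shared with oligodendrocytes are 13.3% of the oligodendrocyte rises and the 39 shared with microglia 6.4% of the microglial ones. The 3 classes come from the same libraries, so these calls are not independent of one another.

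The 55 shared rises held 14 interferon-response genes, 11 of them called in all 3 classes, 3 genes of MHC class I presentation, 2 of MHC class II presentation, 5 immunoglobulin chains, 2 alpha-globin genes and 26 genes in no list. Against the untraced libraries neurons had 16 rises and 6 falls (0.138% and 0.0517% of genes tested), oligodendrocytes 248 and 111 (2.08% and 0.931%) and microglia 369 and 267 (4.45% and 3.22%). Of the 16 neuronal rises, 15 were shared with a glial class and 13 with both, among them Rnf213, Oasl2, Ddx60, Herc6, Usp18, Iigp1, Cd274, Nlrc5, H2-K1, B2m, Gm4951 and Igkc. All 6 neuronal falls were shared with a glial class, and 5 of them, among which are Hmgcs1, Insig1, Msmo1 and Sqle, are on the sterol list; the other is the myelin gene Mal. When the 3 uninjured libraries were pooled as 1 group, neurons had 16 rises and 1 fall (0.128% and 0.008%), oligodendrocytes 100 and 9 (0.943% and 0.0848%) and microglia 148 and 47 (2.23% and 0.709%). There 15 of the neuronal rises were shared with a glial class, 6 of them with both (among them Rnf213, Oasl2, Ddx60, Iigp1 and H2-K1), and 0 falls were shared. At an unadjusted p under 0.05 the pooled comparison had 711, 710 and 1022 genes in neurons, oligodendrocytes and microglia.

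The counts depend on single libraries. Without hemisection library 2, which holds most glial nuclei, the calls against the uninjured control fell to 327 in neurons, 106 in oligodendrocytes and 412 in microglia, with 17 shared rises and 61 shared falls. Without hemisection library 1, which holds most neurons, they were 171, 784 and 1840, with 31 shared rises and 80 shared falls. DESeq2 called 136, 251 and 333 genes, with 8 shared rises and 38 shared falls, and its balance differed: 166 higher and 85 lower in oligodendrocytes and 181 higher and 152 lower in microglia.

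The start sites of shared genes are printed because the classic interferon-stimulated response element and the sterol regulatory element lie close to the start of many genes of these pathways. The windows run from 250 bases before to 50 after each start (RefSeq, build GRCm38.p6), and 41 of the 55 shared rises and 176 of the 260 shared falls had one. The letters GAAA, any 2 bases and GAAA again, on either strand, stood in 8 of the 41 genes and in 7 of the 13 matched ones on the interferon or MHC class I lists, against 3.99% of all 27025 genes with a window. The letters TCACNCCAC stood in 1 of the 6 matched sterol genes, against 1.44% of all genes. A match is a description of letters, not a bound site. The 4 shared rises and 1 shared fall chosen by the rule in the processing section follow, 5′ to 3′ on the gene's strand with the match in capitals; where the match lies on the other strand, the capitals show its complement read along the gene.
Ddx60, chr8:61927837-61928136, plus strand: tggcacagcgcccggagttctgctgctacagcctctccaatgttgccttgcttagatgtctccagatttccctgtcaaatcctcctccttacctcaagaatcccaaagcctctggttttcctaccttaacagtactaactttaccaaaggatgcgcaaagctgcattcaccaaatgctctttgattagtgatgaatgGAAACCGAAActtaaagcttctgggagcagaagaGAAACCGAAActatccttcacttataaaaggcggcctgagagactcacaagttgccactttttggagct
Ddx58, chr4:40239776-40240075, minus strand: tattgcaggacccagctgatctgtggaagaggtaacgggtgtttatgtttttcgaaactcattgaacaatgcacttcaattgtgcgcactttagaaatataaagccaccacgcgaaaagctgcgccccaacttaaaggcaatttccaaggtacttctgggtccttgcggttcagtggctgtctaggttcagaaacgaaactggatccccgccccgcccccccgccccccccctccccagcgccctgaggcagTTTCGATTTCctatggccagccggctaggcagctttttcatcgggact
Stat2, chr10:128270248-128270547, plus strand: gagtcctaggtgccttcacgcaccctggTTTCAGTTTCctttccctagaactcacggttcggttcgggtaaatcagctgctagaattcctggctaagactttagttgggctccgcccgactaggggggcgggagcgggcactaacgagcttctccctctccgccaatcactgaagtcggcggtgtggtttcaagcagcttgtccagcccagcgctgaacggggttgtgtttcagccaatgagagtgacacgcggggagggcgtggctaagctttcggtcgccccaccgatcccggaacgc
Ifih1, chr2:62646206-62646505, minus strand: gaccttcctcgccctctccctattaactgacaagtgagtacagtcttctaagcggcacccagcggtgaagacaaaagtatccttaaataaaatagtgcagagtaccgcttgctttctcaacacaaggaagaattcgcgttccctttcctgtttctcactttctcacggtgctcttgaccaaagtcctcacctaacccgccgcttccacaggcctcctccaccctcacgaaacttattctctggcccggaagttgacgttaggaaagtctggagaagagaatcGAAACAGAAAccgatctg
Hmgcs1, chr13:119690101-119690400, plus strand: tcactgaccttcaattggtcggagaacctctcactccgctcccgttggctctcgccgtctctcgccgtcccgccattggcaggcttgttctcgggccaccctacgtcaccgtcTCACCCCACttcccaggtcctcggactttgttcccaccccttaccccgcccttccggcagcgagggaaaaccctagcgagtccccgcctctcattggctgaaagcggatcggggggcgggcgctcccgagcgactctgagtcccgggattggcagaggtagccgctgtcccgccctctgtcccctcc
Ddx60, Ddx58 and Ifih1 encode RNA helicases that sense viral RNA or assist such sensors, and Stat2 encodes a transcription factor of the interferon pathway. Counted from the start of the transcript, the Ddx60 matches begin at -53 and -19, the Stat2 match at -222, the Ddx58 match at 3 and the Ifih1 match at 33. Hmgcs1 encodes the HMG-CoA synthase that opens the sterol pathway, and its match begins at -137.

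Rnf213, a large ubiquitin ligase that interferon induces (GRCm38, chromosome 11, 119393100 to 119487418), was higher after hemisection in every tested class. In neurons it stood at 71.9 and 117 CPM in hemisection libraries 1 and 2, 20.6 CPM in the uninjured control and 10.8 and 12.3 CPM in the untraced libraries. In oligodendrocytes it stood at 283 and 278, 31.3, and 21.3 and 23.6 CPM in the same order. In microglia it stood at 640.04 and 727, 109, and 89.99 and 245 CPM. Both hemisection libraries lay above all 3 uninjured libraries in each class, with no overlap. Here and below, lack of overlap describes few values and is not a test, and its share over all genes is not given. Some of the genes named were also chosen for lack of overlap with the uninjured control. The log2 fold changes against the uninjured control were 2.26 ± 0.34 (SE, adjusted p = 0.000924) in neurons, 3.23 ± 0.30 (1.84e-06) in oligodendrocytes and 2.65 ± 0.41 (7.08e-07) in microglia. With the untraced libraries as reference they were 3.05, 3.52 and 1.98 (adjusted p = 0.000405, 3.52e-08 and 4.36e-06).

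Oasl2, an interferon-induced gene of the oligoadenylate synthase family, and Iigp1, an interferon-induced GTPase that attacks the vacuoles of pathogens, were at or near 0 in uninjured neurons and oligodendrocytes. Oasl2 stood at 27.6 and 44 CPM in hemisection neurons against 1.12 to 1.74 CPM in the 3 uninjured libraries. In oligodendrocytes it stood at 217 and 259.5 CPM against 0.638 to 1.22 CPM, and in microglia at 386 and 240.1 CPM against 6.87 to 58.3 CPM. Its groups did not overlap in any of the 3 classes. Iigp1 stood at 566 and 417 CPM in hemisection oligodendrocytes, at 0.437 CPM in the uninjured control and at 0 in both untraced libraries, at least 850.0-fold lower by a floor of 3 counts over the group. In microglia it stood at 362 and 409 CPM against 0 counts in the uninjured control, at least 138-fold lower, and 15 and 37.9 CPM in the untraced libraries. In neurons it stood at 17.9 and 8.6 CPM against 0.241 CPM and 0 in the untraced libraries.

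**Figure D2:**
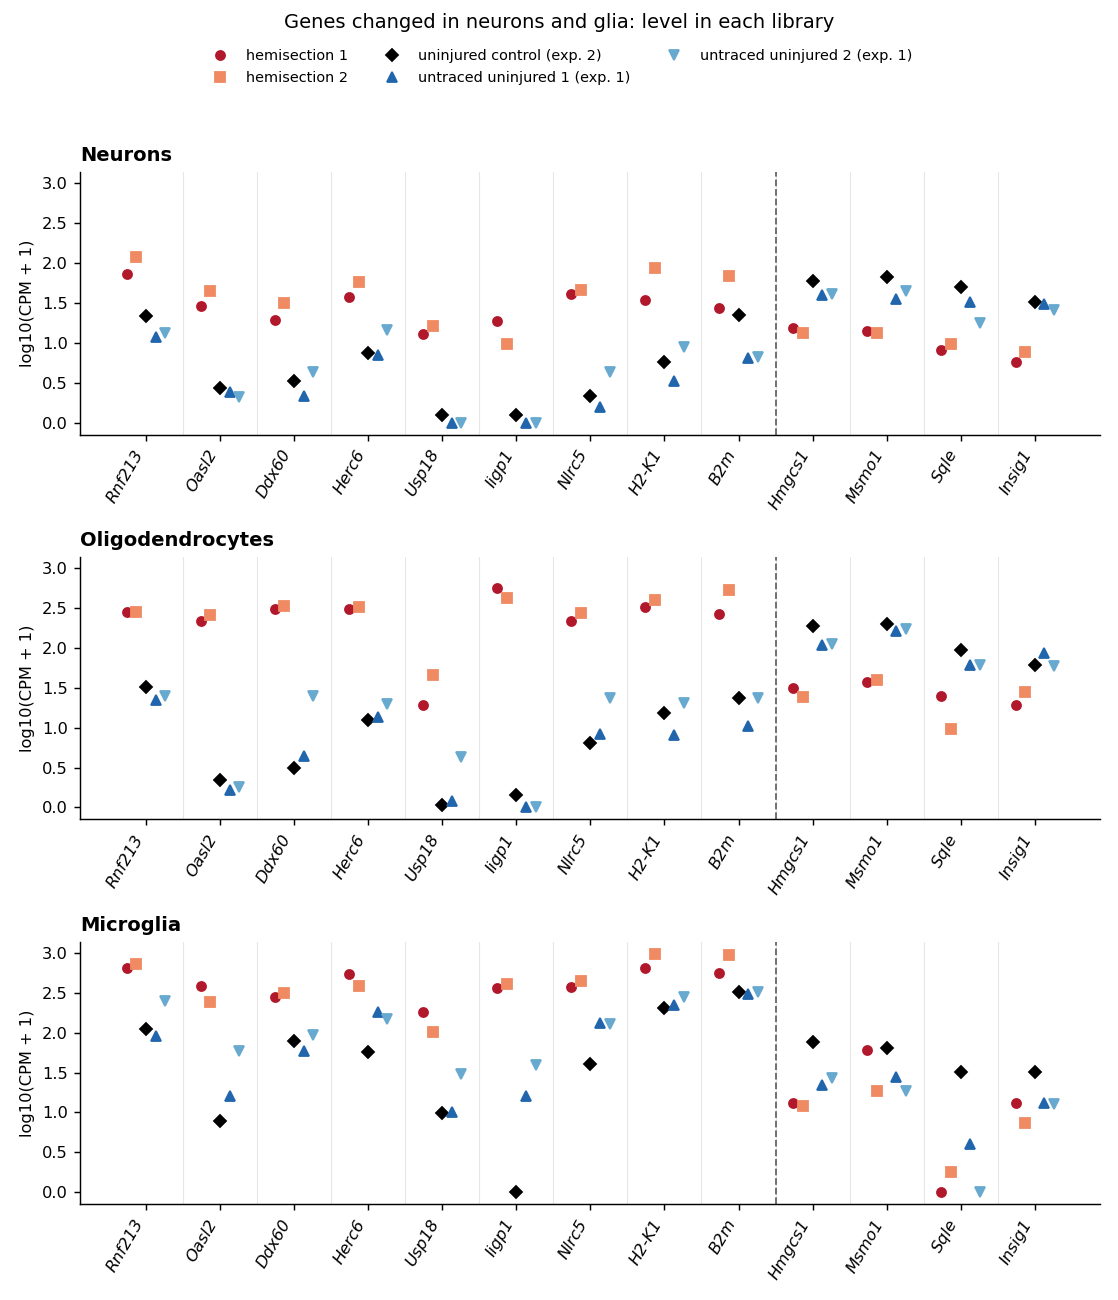
Level of 9 shared rises (left of the dashed line) and 4 shared sterol falls (right) as log10(CPM + 1) in neurons, oligodendrocytes and microglia, with 1 point per library. For each of the 9 rises the red and orange hemisection points lie above all uninjured points in each class, while the sterol genes of microglia overlap between groups for some genes, such as Msmo1.

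Of the 60 interferon-response genes listed, 27 passed the low-count filter in neurons, 47 in oligodendrocytes and 49 in microglia; a gene that is absent from uninjured tissue could pass only through its level after hemisection. Against the uninjured control 14 rose in neurons, 42 in oligodendrocytes and 39 in microglia, and 0 fell. The median log2 fold changes of the tested members were 2.45, 5.18 and 2.92, while the medians of all genes tested were 0.03, -0.08 and -0.08. With the untraced libraries as reference 10, 41 and 29 rose and 0 fell, with medians of 2.94, 5.07 and 1.92. Among all genes tested 0.948%, 2.83% and 7.35% rose against the uninjured control and 0.138%, 2.08% and 4.45% against the untraced libraries. The sensors Ddx58 and Ifih1 rose in all 3 classes against the uninjured control, and in neurons their log2 values against the untraced libraries, 2.40 and 4.24, did not pass (adjusted p = 0.0726 and 0.246). Without hemisection library 2 the interferon calls against the uninjured control were 9 of 23 tested members in neurons, 17 of 36 in oligodendrocytes and 22 of 41 in microglia, and without hemisection library 1 they were 6 of 22, 40 of 48 and 43 of 53. DESeq2 called 3, 37 and 22.

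The rise was larger in oligodendrocytes than in the other classes for many of these genes. A gene could enter the joint fit used here through its level in any class and group, hemisection glia included. Some members thus had few counts in neurons, and the counts below carry that selection. In a fit of both classes together, 29 of 54 tested interferon genes rose more in oligodendrocytes than in neurons and 0 less, with a median difference of 2.52 log2 units, where 6.98% of all 13262 genes differed either way. Between microglia and oligodendrocytes 19 of the 54 rose less in microglia and 0 more, with a median difference of -1.72 (8.9% of all genes differed). Between microglia and neurons 9 rose more in microglia and 3 less (14.2% of all genes differed). The counts with the untraced reference were 8 and 0 of 54 for oligodendrocytes minus neurons, 0 and 23 for microglia minus oligodendrocytes and 0 and 2 for microglia minus neurons (0.762%, 2.89% and 2.22% of all genes differed). The uninjured level itself differed between classes: the list summed to 1559 to 3409 CPM in uninjured microglia, 303 to 354 CPM in uninjured oligodendrocytes and 274 to 331 CPM in uninjured neurons. After hemisection it summed to 10494 and 9049 CPM in microglia, 4709 and 5403 CPM in oligodendrocytes and 800.5 and 1034 CPM in neurons.

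**Figure D3:**
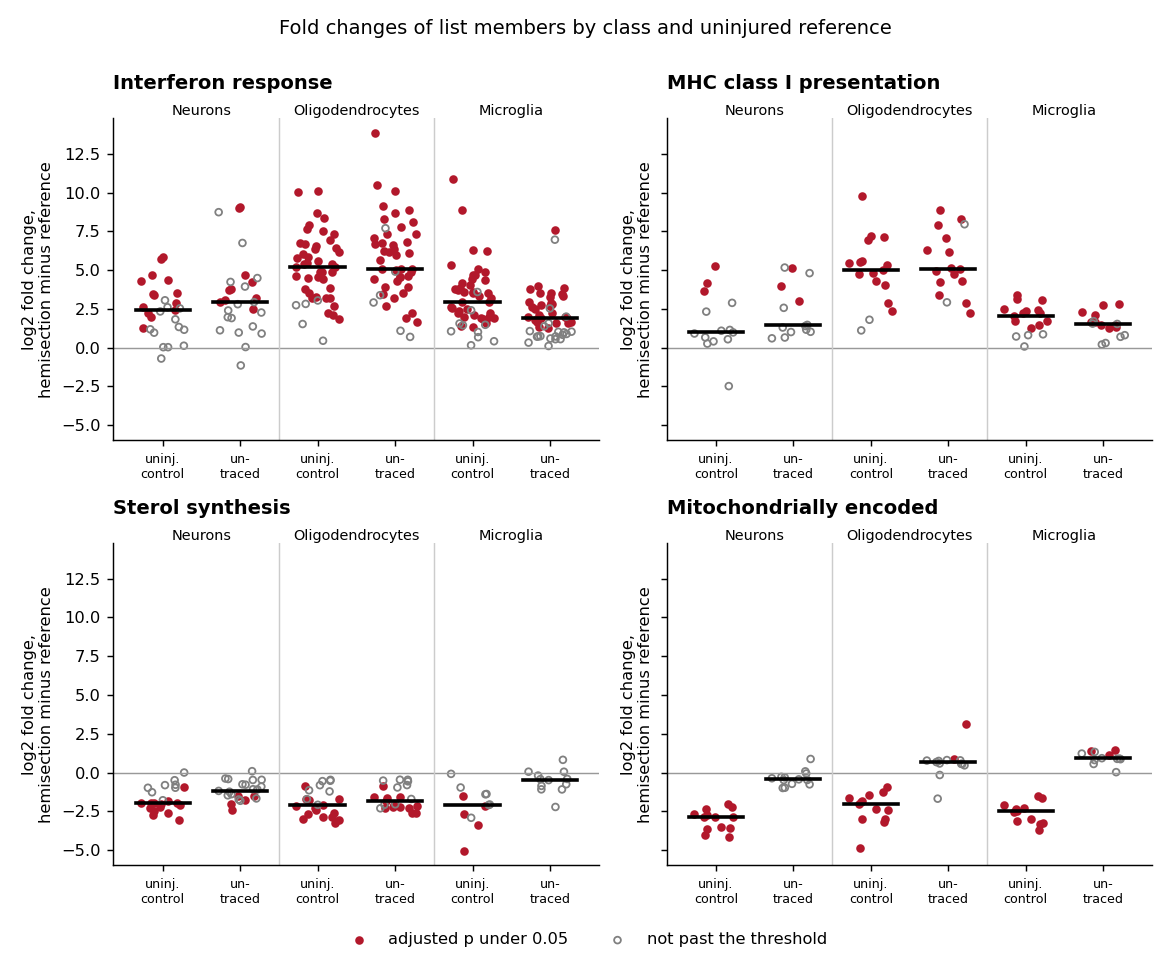
Log2 fold change of every tested member of 4 lists, in each class, against the uninjured control and against the untraced libraries; filled points passed the test and the black bar is the median. Interferon medians are positive in all 6 columns (1.92 to 5.18), while mitochondrially encoded genes have medians of -2.86 to -2.01 against the uninjured control and -0.44 to 0.91 against the untraced libraries.

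Interferon-list UMIs were counted per nucleus. After each nucleus was thinned to 1000 UMIs, 7.76% and 11.1% of neurons of hemisection libraries 1 and 2 had at least 3 interferon-list UMIs, against 0.559% in the uninjured control and 0 of 353 and 0 of 117 neurons in the untraced libraries. Among oligodendrocytes the shares were 47.5% and 54.8% after hemisection and 0.285% to 2.28% in the uninjured libraries. Among microglia they were 86.2% and 78.5% after hemisection and 24.04% to 50.3% in the uninjured libraries. Thinning left out 85 and 0 neurons, and unthinned, 11.7% and 24.1% of hemisection neurons had an Oasl2 UMI against 0.813% to 1.40% of uninjured ones. Across the neuronal name families with at least 5 nuclei in hemisection library 1, the list summed to between 534 CPM in the family VIL and 2318 CPM in MEP, and in the uninjured control to between 219 and 424 CPM, so every family was above that range. A UMI does not show that a nucleus expressed the gene: after the same thinning, 4.92% and 12.04% of hemisection neurons had a UMI of Igkc, an immunoglobulin transcript of plasma cells, against 0.0932% in the uninjured control. The median neuron of hemisection library 1 had 0 interferon-list UMIs and that of library 2 had 1.

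**Figure D4:**
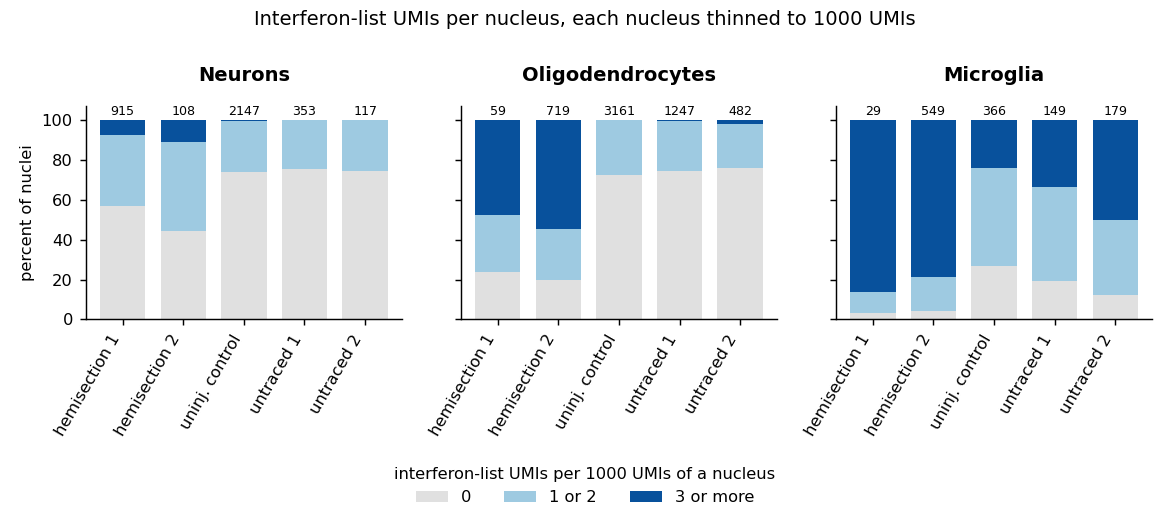
Share of nuclei with 0, 1 or 2, and 3 or more UMIs of interferon-list genes among 1000 UMIs, by class and library, with the number of nuclei above each bar. In oligodendrocytes 47.5% and 54.8% of hemisection nuclei and at most 2.28% of uninjured nuclei fall in the darkest segment.

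Iigp1 and Ifit1, 2 interferon genes picked with their levels known, differed in how neurons compared with oligodendrocytes. Microglia are left out of this comparison. In hemisection library 1, Iigp1 stood at 17.9 CPM (95% Poisson interval 15.1 to 21.1) in neurons and 566 (457 to 693) in oligodendrocytes. Ifit1 stood at 55.6 (50.6 to 61.0) in neurons and 42.2 (16.9 to 86.9) in oligodendrocytes, with intervals that overlap. In library 2 Ifit1 was higher in neurons, at 112 CPM (92.5 to 134), than in oligodendrocytes, at 72.8 (60.7 to 86.6), and Iigp1 was lower, at 8.6 (3.93 to 16.3) against 417 (387 to 448). These intervals cover counting error only, and the part of free RNA in the interferon levels was not tested.

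Genes of MHC class I presentation rose in each tested class. Nlrc5, the transactivator of MHC class I genes (chromosome 8, 94434356 to 94527272), stood at 39.3 and 44.9 CPM in hemisection neurons against 0.57 to 3.36 CPM in the uninjured libraries. In oligodendrocytes it stood at 217 and 274 CPM against 5.42 to 22.8 CPM, and in microglia at 374 and 443 CPM against 39.2 to 132 CPM. The groups did not overlap in any class, and the log2 fold changes against the uninjured control were 5.24, 5.61 and 3.39 (adjusted p = 4.98e-05, 1.1e-06 and 9.13e-09). The untraced reference gave 5.13, 4.21 and 1.63 (adjusted p = 0.000547, 9.52e-07 and 0.000179). H2-K1, a classical class I heavy chain, rose by 3.68, 4.77 and 2.03 against the uninjured control and by 3.95, 4.94 and 1.68 against the untraced libraries, although DESeq2 called it in neurons against neither (adjusted p = 0.918 and 1). Its neuronal call against the untraced libraries was also lost without hemisection library 2 (0.0749) and without untraced library 1 (0.852). In microglia both genes lost the call against the untraced libraries without hemisection library 2 (0.0986 for Nlrc5 and 0.0998 for H2-K1). Of the 17 genes listed, 14, 17 and 17 were tested. Against the uninjured control 3, 15 and 13 rose, with medians of 1.04, 5.04 and 2.03. Against the untraced libraries 3, 15 and 10 rose. Among all genes tested 0.948%, 2.83% and 7.35% rose against the uninjured control and 0.138%, 2.08% and 4.45% against the untraced libraries. H2-D1 stood at 349 and 732 CPM in hemisection oligodendrocytes against 14.7 to 18.3 CPM, and Tap1, a subunit of the peptide transporter, at 84.3 and 108 CPM against 0.7 to 2.44 CPM. Between microglia and oligodendrocytes, 12 of the 17 rose less in microglia and 0 more against the uninjured control, and 13 and 0 against the untraced libraries. Over all genes, 8.9% and 2.89% differed either way.

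Transcripts of blood and plasma cells were also higher after hemisection in the 3 tested classes. Igkc, the kappa light chain constant region, stood at 44.2 and 141 CPM in hemisection neurons, 139 and 596 CPM in oligodendrocytes and 121 and 555 CPM in microglia. It stood at 0 to 2.55 CPM in uninjured neurons and oligodendrocytes, and at 109.9, 3 and 0 CPM in uninjured microglia, where its rise against the uninjured control was lost without hemisection library 2 (log2 0.06, adjusted p = 0.977). Summed over 91 immunoglobulin chain genes, the level of hemisection library 2 was 992 CPM in oligodendrocytes, 998 CPM in microglia and 309.7 CPM in neurons, and that of library 1 was 301, 217 and 98.8 CPM. Hba-a1, an alpha-globin gene, stood at 319 and 245 CPM in oligodendrocytes, 266 and 215 CPM in microglia and 104 and 83.2 CPM in neurons, against 22.6 to 114 CPM in the uninjured libraries. It rose in all 3 classes against the uninjured control; against the untraced libraries it rose in oligodendrocytes (log2 1.47, adjusted p = 0.00047) and did not pass in neurons (1.17, 0.077) or microglia (0.96, 0.0871). Oligodendrocytes and microglia of a hemisection library thus had like levels of both, while Igkc in the uninjured control was higher in microglia than in oligodendrocytes. Whether this RNA was free in the suspension was not tested.

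Sterol synthesis genes fell in neurons and oligodendrocytes against both references by edgeR, while DESeq2 called 0 of the neuronal falls against the untraced libraries. Hmgcs1 (chromosome 13, 119690379 to 119708260) stood at 14.4 and 12.4 CPM in hemisection neurons, 59 CPM in the uninjured control and 38.2 and 40.3 CPM in the untraced libraries. In oligodendrocytes it stood at 30.1 and 22.9 CPM, 186 CPM, and 108 and 110.0 CPM. In both classes every hemisection value lay below every uninjured value. In microglia it stood at 12.1 and 11.2 CPM from 1 and 14 counts, 75.5 CPM in the uninjured control and 21 and 26.2 CPM in the untraced libraries. The log2 fold changes were -1.995, -2.86 and -2.70 against the uninjured control (adjusted p = 0.000521, 1.06e-05 and 0.000714) and -1.48, -2.30 and -1.09 against the untraced libraries (0.0314, 6.81e-05 and 0.485).

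Of the 24 sterol genes listed, 22, 23 and 12 were tested in neurons, oligodendrocytes and microglia. Against the uninjured control 14, 15 and 5 fell and 0 rose, with medians of -1.95, -2.08 and -2.08. The untraced reference gave 5, 13 and 0 falls and 0 rises, with medians of -1.21, -1.83 and -0.46. Among all genes tested 4.61%, 4.77% and 13% fell against the uninjured control and 0.0517%, 0.931% and 3.22% against the untraced libraries. The 5 microglial falls against the uninjured control were lost without hemisection library 2 (0 of 11 tested) and with DESeq2 (0 of 12). The falls included Sqle, squalene epoxidase (-2.63 in neurons and -3.05 in oligodendrocytes against the uninjured control), and Msmo1, a methylsterol oxidase (-2.25 and -2.26). Insig1, which holds back SREBP processing, fell in neurons against both references (-2.49 and -2.40), and in oligodendrocytes only its fall against the untraced libraries passed (-1.14, adjusted p = 0.0658, and -1.65, 0.00743). In neurons the sterol calls against the untraced libraries fell from 5 to 0 without hemisection library 1, 2 without library 2 and 1 without untraced library 1, and to 0 in dorsal excitatory neurons alone. The difference of the effect between oligodendrocytes and neurons passed for 0 of 23 sterol genes against the uninjured control, where 6.98% of all genes differed. Against the untraced libraries it passed for 1 of 23, where 0.762% of all genes differed. So few genes cannot show that the effects were equal.

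Abca1, which exports cholesterol from cells, rose in oligodendrocytes and microglia against both references and in neurons against the uninjured control only. It stood at 29.7 and 19.1 CPM in hemisection neurons against 6.56 to 10.1 CPM, at 319 and 384 CPM in oligodendrocytes against 51.3 to 60.01 CPM, and at 1509.5 and 1543 CPM in microglia against 184 to 682 CPM. The groups did not overlap in any class. Against the uninjured control it rose by 1.58, 2.66 and 3.03 log2 units (adjusted p = 0.0261, 7.92e-06 and 2.85e-08). Against the untraced libraries the values were 1.78, 2.63 and 1.68 (adjusted p = 0.118, 3.98e-07 and 3.01e-05), so the neuronal one did not pass, and DESeq2 did not call the microglial one (0.191). The neuronal call against the uninjured control was lost without either hemisection library (adjusted p = 0.499 without library 1 and 0.0509 without library 2), and DESeq2 did not make it (0.652).

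Most other shared falls were seen against the uninjured control only. All 13 mitochondrially encoded genes fell there in neurons and oligodendrocytes, and all 12 tested in microglia. With the untraced reference 0 fell, and 2 rose in oligodendrocytes and 3 in microglia. The log2 values of mt-Atp6, a subunit of ATP synthase, were -3.53 in neurons, -2.38 in oligodendrocytes and -3.02 in microglia against the uninjured control, and -0.44, 0.89 and 1.14 against the untraced libraries. Of 29 nuclear genes of the respiratory chain 14, 20 and 21 fell against the uninjured control and 0 against the untraced libraries. The same held for myelin genes outside oligodendrocytes, where 16 of 17 tested in neurons and 17 of 18 in microglia fell against the uninjured control, and 1 and 3 against the untraced libraries. Among all genes tested in neurons, oligodendrocytes and microglia, 4.61%, 4.77% and 13% fell against the uninjured control. Against the untraced libraries 0.0517%, 0.931% and 3.22% fell. The largest glial falls were neuronal transcripts: Nefm, a neurofilament subunit, stood at 0 and 6.3 CPM in hemisection oligodendrocytes, 273 CPM in the uninjured control and 10.4 and 6.52 CPM in the untraced libraries.

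In oligodendrocytes, which wrap axons in myelin, most myelin genes passed the test in neither direction. Of 20 myelin genes 4 fell and 1 rose against the uninjured control, where 4.77% of all genes tested fell, and 3 fell against the untraced libraries (0.931% of all), with medians of -0.13 and -0.26. The 10 oligodendrocyte markers summed to 16909 and 16972 CPM after hemisection, below all 3 uninjured libraries (18189 to 21952 CPM). Fa2h, which makes the hydroxylated lipids of myelin, stood at 499.8 and 572 CPM after hemisection against 783 to 924 CPM in the uninjured libraries and fell against both (-0.69 and -0.74, adjusted p = 0.0401 and 0.0195). C4b, a complement component that oligodendrocytes make in several kinds of damage, stood at 909 and 1306 CPM after hemisection and at 65.3, 87.8 and 275 CPM in the uninjured libraries. It rose by 4.18 and 2.55 against the uninjured control and the untraced libraries (adjusted p = 2.61e-05 and 0.000163). Serpina3n, a secreted protease inhibitor, stood at 126 and 269 CPM against 7.87 to 34.2 CPM, and Il33, an alarm cytokine of myelinating cells, at 964 and 837 CPM against 393 to 557 CPM. Hemisection and uninjured values did not overlap for these 3 genes. Of 16 genes listed as injury-associated in oligodendrocytes, 7 rose and 1 fell against the uninjured control and 7 rose against the untraced libraries. Among all genes tested in the class, 2.83% rose and 4.77% fell against the uninjured control and 2.08% rose against the untraced libraries.

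Stat3 and Socs3, a cytokine-activated transcription factor and the inhibitor that it induces, rose in oligodendrocytes as well (2.13 and 6.29 against the uninjured control, adjusted p = 0.00111 and 0.00174, and 1.27 and 3.69 against the untraced libraries, 0.0145 and 0.0192). Without hemisection library 2 the adjusted p of Stat3 was 0.0726 against the uninjured control and 0.441 against the untraced libraries. Against the latter Socs3 was not called with DESeq2 (0.155) or without untraced library 1 (0.238). The GTPases Gbp7 and Irgm2, both induced by interferon, stood at 283 and 264 CPM and at 181 and 170.1 CPM, against 1.7 to 4.89 and 0.638 to 0.962 CPM in the uninjured libraries. Ighg2c, an immunoglobulin heavy chain constant region, had 183 counts after hemisection and 0 in the uninjured control, at least 365-fold higher by the floor of 3 counts. Tgtp2, a T-cell-specific GTPase that interferon also induces, had 69 counts against 0, at least 138-fold higher. Transcripts known from microglia rose in the class too, among them Tyrobp and C1qa (3.33 and 3.65 against the uninjured control, adjusted p = 0.00721 and 0.00193, and 3.35 and 2.31 against the untraced libraries, 0.00429 and 0.0173). Against the uninjured control both calls were lost without hemisection library 2 (0.697 and 0.6) and with DESeq2 (0.0778 and 0.348), and against the untraced libraries both were lost without hemisection library 2 (0.806 and 0.927). Microglial markers summed to 181 and 468 CPM in hemisection oligodendrocytes and to 167, 74.2 and 271 CPM in the uninjured ones, and 3 of the 8 (P2ry12, Siglech and Tmem119) were at 0 in hemisection library 1. Their part in these rises was not tested.

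In the nuclei annotated as microglia, genes known from disease-associated microglia rose and homeostatic ones fell. Gpnmb, a lysosomal glycoprotein (chromosome 6, 49036546 to 49070929), stood at 1944 and 1578 CPM after hemisection, at 0 counts in the uninjured control and in untraced library 1 and at 43.7 CPM in untraced library 2. It was thus at least 544-fold higher than in the uninjured control, and it rose by 6.22 against the untraced libraries (adjusted p = 4.61e-18). Apoe, the main lipid carrier of the nervous system, stood at 8260.1 and 7281 CPM against 686, 1182 and 2529 CPM. Spp1, the secreted ligand osteopontin, stood at 833 and 1126 CPM against 25.5, 12 and 163 CPM, and Lgals3, a galectin of phagocytes, at 399 and 277 CPM against 3.92, 0 and 11.7 CPM. For these 4 genes the groups did not overlap, and untraced library 2 was the highest of the uninjured libraries. Of 22 disease-associated genes, 21 were tested and 15 rose against the uninjured control, 13 against the untraced libraries, where 1 fell. The medians were 2.27 and 1.54. Of all genes tested in microglia 7.35% rose against the uninjured control and 4.45% against the untraced libraries.

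Siglech, a surface lectin of resident microglia, stood at 48.3 and 82.4 CPM after hemisection against 825, 1251 and 682 CPM in the uninjured libraries, and fell by 3.43 log2 units against the uninjured control (adjusted p = 5.23e-11) and fell by 3.72 against the untraced libraries (5.24e-13). P2ry12, the purine receptor by which microglia find damage, stood at 326 and 372 CPM against 1159.7, 1635 and 897 CPM and fell by 1.71 and 1.90 (adjusted p = 4.48e-05 and 1.4e-06). Tmem119, a membrane protein of resident microglia, stood at 84.5 and 67.2 CPM against 249, 426 and 186 CPM. All 3 groups of values were apart from the uninjured ones. Of 13 homeostatic genes 8 fell against the uninjured control (13% of all genes tested fell) and 9 against the untraced libraries (3.22%), and 0 rose. Trem2, the lipid receptor that governs the disease-associated state, showed log2 values of -0.39 and -0.0034 and passed against neither (adjusted p = 0.5 and 0.999). Without hemisection library 2, 9 of the disease-associated rises and 3 of the homeostatic falls against the uninjured control were called; DESeq2 called 10 and 3.

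**Figure D5:**
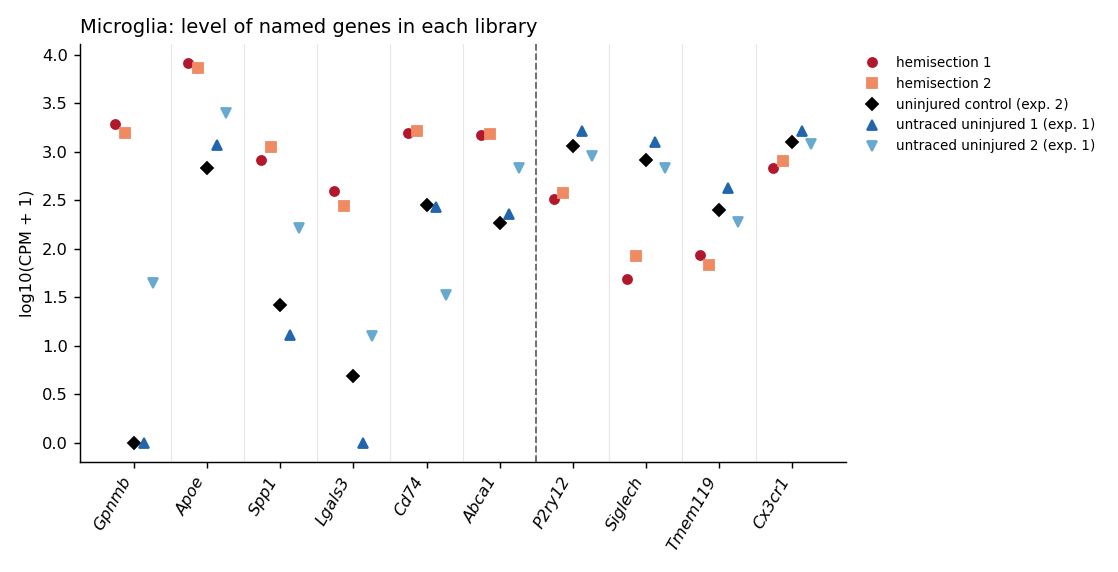
Level of 10 genes in microglia as log10(CPM + 1), with 1 point per library; genes left of the dashed line were higher and those right of it lower after hemisection. Cx3cr1 did not pass against the uninjured control (log2 -0.76, adjusted p = 0.0801) and passed against the untraced libraries (-0.98, 0.0104).

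Genes of lipid handling, which take up, store or export lipid, rose in microglia. Of 17 listed genes 14 were tested, and 9 rose against either reference (7.35% and 4.45% of all genes tested rose), with medians of 2.06 and 1.72. They include Abcg1, a second sterol exporter, at 302 and 309.8 CPM against 48 to 84.5 CPM, and Lpl, lipoprotein lipase, at 266 and 142 CPM against 9 to 72.8 CPM. The next counts come from the joint fit, whose filter a gene could pass through hemisection glia alone. Between microglia and neurons 11 of 16 of these genes rose more in microglia and 0 less against the uninjured control (14.2% of all genes differed either way), and 6 more and 1 less against the untraced libraries (2.22%). MHC class II presentation rose too: Cd74, the invariant chain, stood at 1569.9 and 1650.5 CPM against 285, 270.0 and 32 CPM, and 4 of 8 tested genes rose against the uninjured control and 5 against the untraced libraries. Among cytokines, Cxcl10, an interferon-induced chemokine, had 154 counts after hemisection and 1 and 0 counts in the references, a ratio of 118 to the uninjured control (95% counting interval 20.8 to 4684). Acod1, which makes the antimicrobial metabolite itaconate, stood at 435 and 164 CPM against 0, 0 and 2.91 CPM. Mamdc2, a gene for a secreted protein, had 125 counts against 0 in all 3 uninjured libraries, at least 31.9-fold higher than the uninjured control.

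Infiltrating myeloid cells could be counted as microglia. Their 9 markers summed to 1377 and 1489 CPM in hemisection microglia and to 598, 483 and 402 CPM in uninjured ones; Lyz2, a lysozyme of phagocytes, alone stood at 604 and 864 CPM against 102 to 194 CPM. In hemisection library 1 Cd163, F13a1, S100a8 and S100a9 were at 0, and Mrc1, a macrophage receptor, stood at 24.2 and 33.6 CPM after hemisection against 57 to 119 CPM. The part of such cells in the microglial changes was not tested.

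Outside the shared genes, Chrm4 rose in neurons against both references. Chrm4, the M4 muscarinic acetylcholine receptor (chromosome 2, 91927249 to 91928688), stood at 86 and 100.4 CPM in hemisection neurons against 0.145, 0.285 and 0 CPM in the uninjured libraries. The ratio to the uninjured control was 606 (95% counting interval 207 to 2943), from 805 counts against 3. In oligodendrocytes, microglia and astrocytes of the hemisection libraries it had 1 count in all, and in oligodendrocyte precursors it had 3 counts, all in library 1. A Chrm4 UMI was found in 16.3% and 20.4% of hemisection neurons and in 0.14% of those of the uninjured control. Oligodendrocyte markers in neurons summed to 80.2 and 184 CPM after hemisection, 775 CPM in the uninjured control and 238 and 267 CPM in the untraced libraries, beside the neuronal falls of myelin genes. Of 25 genes linked to axon regeneration 19 were tested in neurons, of which 1 rose and 4 fell against the uninjured control and 0 changed against the untraced libraries. Among all genes tested in neurons, 0.948% rose and 4.61% fell against the uninjured control. Against the untraced libraries 0.138% rose and 0.0517% fell, so 0 of 19 there is near the share of all genes.

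Oligodendrocyte precursors, the dividing cells that renew oligodendrocytes, were few, and interferon-response genes were among their rises. At the minimum of 10 nuclei, 55 genes were higher and 108 lower than in the uninjured control (1.69% and 3.32% of 3250 tested), and 21 higher and 1 lower than in the untraced libraries (0.646% and 0.0308%). Oasl2 had 24 and 15 counts after hemisection, 0 in the uninjured control and 0 and 1 in the untraced libraries, and Ddx60 had 27 and 22 against 2, 3 and 2. Nlrc5 had 35 and 19 counts against 2, 2 and 0, and H2-K1 27 and 41 against 45, 12 and 2. These 4 genes rose against both references. The interferon list summed to 7519 CPM in hemisection library 1 and 2908 CPM in library 2, with intervals that do not overlap (6900 to 8178 and 2588 to 3255), and to 450 to 657 CPM in the uninjured libraries.

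In astrocytes, with 6 and 7 nuclei after hemisection, the interferon list summed to 3232 CPM (95% Poisson interval 2578 to 4002) and 2965 CPM (2378 to 3653), against 512 to 827 CPM in the uninjured libraries. Sterol genes summed to 308 and 539 CPM against 1588 to 1902 CPM. Both hemisection values lay outside the uninjured range for either list, and 84 and 88 interferon UMIs stand behind the first. In vascular nuclei, 2 and 12 after hemisection, the interferon list summed to 3041 and 3514 CPM in the hemisection libraries. It summed to 2579 CPM in the uninjured control and to 1531 and 1436 CPM in the untraced libraries. The interval of hemisection library 1 (1858 to 4697) includes the value of the uninjured control and that of library 2 (2918 to 4196) does not. No test was made in these classes.

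The shares of classes differed between hemisection libraries more than a group comparison could bear. Neurons were 89.6% of nuclei in library 1 and 7.15% in library 2, against 32.4% in the uninjured control. Among nuclei other than neurons, microglia were 27.6% and 42.3% after hemisection and 8.15%, 9.42% and 25.9% in the uninjured libraries, while oligodendrocytes were 53.4% and 54.5% against 70.5%, 79.4% and 68.1%. Astrocytes were 5.17% and 0.499% against 13.2%, 6.51% and 1.31%. The first 2 classes did not overlap between groups, and no test was made because the share of a class also follows how nuclei were collected and kept.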

How the data were processed

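Nuclei of the low thoracic cord were sequenced with 10x Genomics version 3 chemistry. The authors deposited a table of raw UMI counts per gene and nucleus for 12447 nuclei and an annotation that gives each nucleus a library and a class. Per the submitters' processing notes the tools include Cell Ranger 4.0.0 and Seurat 3 and the build is mm10; the sources used here do not state filters on nuclei or how doublets were treated, and no doublet caller was applied. Counts were summed per library and class as deposited and analysed in R 4.3.3 with the edgeR 4.0.16 quasi-likelihood test: TMM scaling, filterByExpr with a minimum count of 10 and a minimum total of 15, 1 coefficient per group, all libraries with at least 20 nuclei of the class (10 for oligodendrocyte precursors), and Benjamini-Hochberg adjustment over all genes tested in the class, with calls at 0.05. Residual degrees of freedom were 3 in neurons and 2 in glia. The neuronal fit also held GFP-traced libraries 1 and 2 of experiment 1 and the regenerating library of experiment 3. Their neurons numbered 80, 25 and 238. These libraries entered the filter, and the traced libraries also entered the estimate of spread. The regenerating library is alone in its group and adds nothing to that estimate. By title, the traced and the untraced library of the same number share a source name. The fit treated them as independent, so the spread in neurons may be understated. Differences of effects between classes came from 1 fit of the 3 classes with the library as a block. Poisson, binomial and ratio intervals are exact, at 95%, and like the floor of 3 counts they cover counting error only. The test was tried on simulated data. DESeq2 1.42.0, other scalings and filters and left-out libraries were the alternatives.

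Libraries were grouped by their titles. The members and gene lists were chosen with earlier results of these data known. Genes are named by this rule: the 5 largest rises and falls of each class at 20 CPM or more on average whose groups did not overlap, the 10 shared genes called in most classes each way, the members of each list with the smallest p, and Igkc and Chrm4; other genes named were chosen after their values were seen. Promoters are those of up to 4 shared rises and of shared sterol falls, in the same order, that hold a motif. Gene coordinates are those of GRCm38. Some genes are counted in their lists and not reported by name here.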

Additional observations from a re-analysis of the deposited data

Results flagged for a closer look

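Some shared rises differed in size between classes by the test of the difference itself in the joint fit (edgeR quasi-likelihood, adjusted over all genes), given here as log2 differences of the effect against the uninjured control. Between microglia and neurons, H2-K1 differed by -1.66 (adjusted p = 0.00143) and Nlrc5 by -1.91 (0.00397), so both rose less in microglia. Between microglia and oligodendrocytes, Cd274, the ligand PD-L1, differed by -2.67 (0.000468), H2-K1 by -2.67 (4.66e-08), H2-Q4 by -6.57 (4.11e-09), Herc6 by -1.87 (0.000756), Nlrc5 by -2.12 (0.000423) and the gene model Gm4951 by -4.35 (3.63e-05). Gm4951 also rose more in oligodendrocytes than in neurons, by 4.72 (3.04e-07). Only named genes called in all 3 classes whose difference passed against both references are listed. Passing against the untraced libraries was thus a condition of the choice. The sign there was the same for all of them.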

How the results depend on the processing

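Calls moved widely with the settings, in the order neurons, oligodendrocytes, microglia below. Against the uninjured control (645, 907 and 1686 calls), DESeq2 gave 136, 251 and 333 and the 3 libraries of experiment 2 alone 2413, 1673 and 2754; no filter on low counts gave 1101 in neurons, and dorsal excitatory neurons alone 237. Leaving out a library gave 171 to 1266, 106 to 1629 and 412 to 2518. Shared rises (55) were 8, 266 and 113 with DESeq2, experiment 2 alone and no filter, and 17 to 148 without a library; shared falls (260) were 38, 658 and 416, and 61 to 481.

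Against the untraced libraries (22, 359 and 636), DESeq2 gave 8, 180 and 208, no filter 84 and 596 in the first 2, and dorsal excitatory neurons 5; leaving out a library gave 9 to 104, 80 to 652 and 186 to 749. Shared rises (15) were 7 and 46 with DESeq2 and no filter, and 4 to 32 without a library; shared falls (6) were 0 and 14, and 0 to 19. Same-numbered hemisection and untraced libraries had residual correlations of 0.105, 0.0407 and 0.0153, so between these groups the numbers share only a name. With the replicate block, calls were 46, 535 and 600, with 29 shared rises and 11 shared falls.

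Against the pooled uninjured libraries (17, 109 and 195), DESeq2 gave 41 in neurons and 294 in microglia, no filter 359, 382 and 635, and dorsal excitatory neurons 9; leaving out a library gave 7 to 19, 11 to 266 and 0 to 502. Shared rises (15) were 30 and 74 with DESeq2 and no filter, and 3 to 17 without a library; shared falls (0) were 6 and 71, and 0 to 1.

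Differences between classes against the uninjured control fell without a library to 88 to 705 for oligodendrocytes and neurons, 142 to 1606 for microglia and neurons and 56 to 1091 for microglia and oligodendrocytes. Against the untraced libraries they fell to 6 to 59, 27 to 180 and 42 to 308, and RLE scaling gave 165 for the first. Of 3570 recomputed values of named genes 3238 kept direction and call, 329 lost the call and 3 reversed: Ctss in oligodendrocytes against the untraced libraries (-0.44) and Fos in microglia against the uninjured control (-2.98), both without hemisection replicate 2 (their ranges without a library were -0.44 to 3.42 and -2.98 to 3.84), and Spp1 in neurons against the uninjured control (0.33) with dorsal excitatory neurons alone. The causes were not tested. The planned split of the uninjured control by barcode in the nucleus name gave no value, since it separates its neurons from all its other nuclei. The few glial nuclei of hemisection library 1 limit every glial comparison.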

Other observations

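Complement genes beyond C4b were called in the oligodendrocyte class: of 13 listed genes 9 were tested, and 5 rose against either reference, with medians of 2.77 and 2.55. Among all genes tested there, 2.83% and 2.08% rose. C1qa, a complement gene known from microglia, lost its call without hemisection library 2 against either reference, as given above. The part of microglial RNA in these rises was not tested. In microglia 5 of 8 tested rose and 1 fell against the uninjured control, and 2 rose and 1 fell against the untraced libraries. Of 69 ribosomal protein genes, 9 fell and 1 rose in oligodendrocytes against the uninjured control, while 25 rose and 0 fell against the untraced libraries, so the direction turned with the reference. Of all genes tested there, 4.77% fell and 2.83% rose against the first and 2.08% rose and 0.931% fell against the second. Immediate early genes, which follow recent stimulation or handling, also turned in microglia, with 4 rises and 0 falls against the uninjured control and 0 rises and 3 falls against the untraced libraries. Of all genes tested in microglia, 7.35% rose and 13% fell against the uninjured control, and 4.45% and 3.22% against the untraced libraries. Of 18 cell cycle genes 5, 7 and 3 were tested in neurons, oligodendrocytes and microglia, and 0 passed against either reference.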
